A study of Homo sapiens with 27 samples.

Results

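MM134 LTED-D is an estrogen-independent variant of the human invasive lobular breast carcinoma line MDA-MB-134VI (MM134), and its RNA-Seq profile is compared here with that of the parental line. The comparison was defined by the sample titles and not by any measured value, and it uses 3 LTED-D and 3 MM134 parental libraries, 6 of the 27 libraries of the series. All 26061 genes that passed a filter on low counts were tested, of 60619 genes with deposited counts. The series profiled long-term estrogen-deprived (LTED) variants of MM134 and SUM44, both ER-positive lobular carcinoma lines, to ask which genes and pathways accompany growth without estrogen. The variants arose as clones during months in medium with charcoal-stripped serum and were kept in that medium. Such serum is depleted of steroid hormones and of other lipophilic compounds. MM134 parental cells are normally grown in another medium with full serum and had been hormone-deprived for 3 days at collection. LTED-D is 1 clone-derived line and its 3 libraries are wells of 1 culture, so duration of deprivation, medium history and clonal origin cannot be told apart. LTED-A, LTED-B and LTED-E, the other MM134 variants (3 libraries each), serve below to show where LTED-D differs from them.

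In luminal breast cells, estrogen binds the estrogen receptor (ER, encoded by ESR1), which then activates genes of secretion and cell division. Aromatase inhibitors remove the ligand, and prolonged culture without estrogen is used as a laboratory model of resistance to them. Lobular carcinoma cells typically lack a working E-cadherin, the adhesion molecule that holds epithelial cells together.

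Library totals were 28583554 to 33811162 estimated counts in parental cells and 32284183 to 45318846 in LTED-D. The 3 most abundant genes took 7.33% to 8.91% of a parental library and 10.4% to 11% of an LTED-D library. All 8 luminal epithelial markers were measured. They summed to 4349 to 4360 CPM (TMM-normalized counts scaled to the library size) in the parental libraries and 6361 to 6473 CPM in LTED-D. This sum does not tell MM134 from another luminal line, and MUC1 was low in parental cells (values below). The basal keratin genes KRT5, KRT14 and KRT17 had at most 6 counts in any of these libraries. The tested basal and myoepithelial markers (3 of 6) summed to 8.39 to 9.96 CPM in parental libraries and 22 to 24.1 CPM in LTED-D, where MYLK rose from 7.1 to 21.7 CPM, TP63 fell from 0.428 to 0.0823 CPM and ACTA2 was not called, and their part in the results was not tested. Of 10 immune markers, 8 were too low to be tested, PTPRC (CD45) among them with at most 13 counts, and the summed level of the other 2 was 0.834 to 1.38 CPM per library. Of these 2, 1 was called higher in LTED-D. The tested fibroblast markers (4 of 7) summed to 20.6 to 27.5 CPM in parental libraries and 12.4 to 20.3 CPM in LTED-D, with 1 called lower. The tested endothelial markers (4 of 6) summed to 3.42 to 3.65 CPM in parental libraries and 5.76 to 5.81 CPM in LTED-D, with 2 called higher. The untested fibroblast markers were not all absent. COL3A1 reached 171 counts in a parental library and 186 in an LTED-D library, and LUM reached 86 and 81. In bulk RNA, fewer cells with a transcript and less transcript per cell cannot be told apart.

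LTED-D differed from parental cells in 4581 genes, 17.6% of those tested. A gene was called DE where edgeR's quasi-likelihood test with Benjamini-Hochberg adjustment gave p under 0.001 and the fold exceeded 1.5. DE genes comprised 2510 higher (9.63%) and 2071 lower (7.95%) in LTED-D. Without any threshold, all 3 LTED-D libraries lay above all 3 parental libraries for 29% of genes and below them for 27.8%, together 56.7%. The median log2 fold change was 1.16 among the genes called higher and -1.22 among those called lower, against -0.03 over all genes tested. Changes over 4-fold were found for 702 genes higher and 518 lower, and changes over 16-fold for 252 and 135. Of the genes called higher, 2063 were protein-coding and 244 lncRNA genes, against 1572 and 345 of those called lower. Scaling by library size alone, in place of TMM, gave 1770 genes higher and 3308 lower and moved the median of all genes to -0.23, so every direction below is relative to TMM scaling.

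Genes at or near silence in parental cells led the rises. UGT2B4, a hepatic glucuronidation enzyme, was at 0.453, 0.588 and 0.645 CPM in the parental libraries and at 680, 706 and 679 CPM in LTED-D, a log2 fold change of 10.26 (SE 0.06, adjusted p = 9.02e-25). RAD21L1, a cohesin subunit of meiotic cells, had at most 3 counts in each parental library and 14.6, 15.7 and 14.9 CPM in LTED-D, at least 156-fold higher (floor of 3 counts per library). Its neighbours TMEM74B (0.267 to 13.4 CPM), SNPH (0 to 3.31 CPM) and SDCBP2 (0.939 to 16.3 CPM) on chromosome 20 rose too. PSMF1, further left, was not called (log2 fold change 0.47), and none of these neighbours was set apart from the other variants. SLC18B1, a vesicular polyamine transporter, had 0 counts in every parental library and 6.99, 6.16 and 5.81 CPM in LTED-D, at least 65.3-fold higher. The lncRNA genes with the largest rises were B3GAT1-DT (0.213 to 8.56 CPM), LINC01091 (0.872 to 10.3 CPM) and TM4SF18-AS1 (0.53 to 5.37 CPM). UGT2B4 belongs to a family of near-identical genes, and reads shared within the family may have been divided between them by the counting.

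The largest falls included secreted and membrane proteins and genes best known from neurons. MMP16, a membrane-anchored matrix metalloproteinase, was at 108, 97.8 and 104 CPM in parental cells and at 0.744, 0.929 and 1.11 CPM in LTED-D. TIMP1, an inhibitor of metalloproteinases, was at 11.4, 11.2 and 12.3 CPM and had at most 3 counts per LTED-D library, at least 120-fold lower (adjusted p = 8.15e-14). Both groups were far apart for each gene. The receptor gene GPR158 went from 25.9 to 0.142 CPM, KISS1R, the kisspeptin receptor, from 24.4 to 0.302 CPM, MAP2, a microtubule-associated protein of dendrites, from 13.4 to 0.156 CPM, and RIMS4, of the synaptic RIM family, from 13.4 to 0.16 CPM. The zinc finger gene PHF21B fell from 26.9 to 0.248 CPM. CXCR4, the receptor of the chemokine CXCL12, was at 77.6, 75.9 and 75.9 CPM in parental cells and at 0.356, 0.338 and 0.394 CPM in LTED-D (log2 fold change -7.70, SE 0.08, adjusted p = 8.75e-22), and averaged 4.41, 1.05 and 62.2 CPM in LTED-A, LTED-B and LTED-E.

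Genes that set LTED-D apart were those that differed from LTED-A, from LTED-B and from LTED-E in the same direction, each past both thresholds. LTED-D differed from LTED-A in 9.88% of genes tested (5.41% higher, 4.47% lower), from LTED-B in 7.4% (4.8% and 2.6%) and from LTED-E in 11.6% (7.64% and 3.99%). There were 528 such genes with the higher level in LTED-D (2.03% of genes tested) and 214 with the lower level (0.821%). Protein-coding genes made up 464 and 159 of them. The 3 LTED-D libraries lay above all 12 other MM134 libraries for 8.43% of genes and below all of them for 4.71%. The genes set apart as higher had a median log2 fold change against parental of 0.88 in LTED-D, and of -0.49, -0.25 and -0.62 in LTED-A, LTED-B and LTED-E. Those set apart as lower had medians of -0.24 in LTED-D and of 1.35, 1.09 and 1.11 in the other variants. These medians share the parental libraries and are given side by side only.

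TXNIP was the gene set apart most clearly on the low side. It encodes the thioredoxin-interacting protein, an arrestin family member that restrains glucose uptake and binds thioredoxin, and its transcription is known to follow glucose supply through a carbohydrate response element bound by MondoA and ChREBP. TXNIP was at 251, 250 and 273 CPM in the parental libraries and at 0.291, 0.788 and 0.116 CPM in LTED-D. Every LTED-D library was below 1 CPM, while the other 12 MM134 libraries were between 111 and 290 CPM. The log2 fold change against parental was -9.38 (SE 0.13, adjusted p = 5.28e-20), and LTED-D differed from LTED-A by -8.25, from LTED-B by -9.51 and from LTED-E by -8.18. TXNIP lies on the minus strand of chromosome 1 (hg38, 145992435 to 145996579). The 250 bases before its start are shown because sugar control of TXNIP is known to act through this region, with a match to the paired E-box pattern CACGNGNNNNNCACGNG, searched on both strands, in capitals 88 bases before the start. The sequence is from RefSeq GRCh38.p14, chr1:145996580-145996829, minus strand, written 5′ to 3′.
TXNIP promoter: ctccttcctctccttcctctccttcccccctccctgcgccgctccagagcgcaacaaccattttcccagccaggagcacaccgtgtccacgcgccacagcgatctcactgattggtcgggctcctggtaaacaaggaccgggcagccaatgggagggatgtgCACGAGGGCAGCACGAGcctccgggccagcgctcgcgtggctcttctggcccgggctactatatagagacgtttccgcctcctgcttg
Of 35116 promoter windows of the same length, 16 (0.0456%) held a match to this pattern, and a second annotated TXNIP start did not. A match is a description of these letters only.

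ARRDC4, the arrestin relative of TXNIP that answers to the same sugar-sensing factors, did not fall. It was at 6.94, 7.5 and 8.42 CPM in parental cells and at 15.6, 14.1 and 14.5 CPM in LTED-D, without overlap (log2 fold change 0.95, SE 0.08, adjusted p = 3.91e-09). Its promoter window (RefSeq GRCh38.p14, chr15:97960453-97960702, plus strand) held no match to the paired pattern and is shown for comparison with TXNIP. Single copies of CACGNG, such as CACGTG, do occur in it, and pairs with other spacing or letters were not searched.
ARRDC4 promoter: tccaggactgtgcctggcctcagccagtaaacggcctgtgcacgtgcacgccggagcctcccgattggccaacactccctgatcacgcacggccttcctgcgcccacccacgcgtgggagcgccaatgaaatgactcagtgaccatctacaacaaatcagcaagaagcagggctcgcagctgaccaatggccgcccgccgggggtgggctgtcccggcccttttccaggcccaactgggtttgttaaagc
ARRDC3, another relative, fell from 39.3 to 21.5 CPM (log2 fold change -0.87). MLXIP, which encodes MondoA, was at 21.0 and 30.3 CPM, and TXN, which encodes thioredoxin, at 157 and 184 CPM, both under the fold threshold. PDK4, a pyruvate dehydrogenase kinase, rose from 14.9 to 27.7 CPM. ARRDC3, ARRDC4, MLXIP, TXN and PDK4 were chosen after their values were seen.

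Other genes that LTED-D held at low levels encode enzymes, transporters and an adaptor. SH3BGRL, a small protein of the thioredoxin fold, was at 81.9, 77.3 and 83.8 CPM in parental cells and had at most 3 counts per LTED-D library, at least 835-fold lower. LTED-E kept a mean of 68.5 CPM, LTED-A had 9.8 CPM and LTED-B 0.543 CPM, so LTED-B lay nearest to LTED-D. G2E3, a ubiquitin ligase gene, was at 41.7, 39 and 40.8 CPM in parental cells and at 1.75, 1.86 and 1.58 CPM in LTED-D (log2 fold change -4.56, SE 0.07, adjusted p = 1.18e-19). The other 12 libraries had 34.1 to 42.7 CPM of G2E3, so LTED-D alone departed from a level that was otherwise nearly constant. GSTM1, a glutathione S-transferase, was at 32.4, 31.9 and 33.2 CPM in parental cells and at 2.88, 2.84 and 3.78 CPM in LTED-D (log2 fold change -3.34, SE 0.07, adjusted p = 4.21e-17). GSTM2, GSTM3 and GSTM4 did not pass the fold threshold (log2 fold changes -0.48, 0.45 and 0.12), and reads shared among these close copies may have been divided by the counting. These 3 genes were chosen after their values were seen.

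Several genes fell in LTED-D and rose in LTED-A, LTED-B and LTED-E. ABCC3, an efflux transporter of conjugated organic anions, was at 21.4, 21.9 and 21.5 CPM in parental cells and at 2.17, 2.39 and 2.46 CPM in LTED-D, a log2 fold change of -3.20 (SE 0.06, adjusted p = 3.18e-18). In the other variants ABCC3 averaged 42.9 to 69.8 CPM, above parental cells. SLC2A10, a glucose transporter family member, went from 14.3 to 2.76 CPM in LTED-D (log2 fold change -2.37) and to 41.4 to 69.3 CPM in the others. PACSIN3, a membrane-bending protein of endocytosis, was at 1.12 CPM in parental cells, 0.215 CPM in LTED-D and 11.2 to 23.3 CPM in the others. TMEM176A and TMEM176B, neighbouring genes for membrane proteins, fell from 17.9 to 2.9 CPM and from 37.1 to 9.81 CPM in LTED-D. Their means in the other variants were 27.3 to 33.5 CPM and 70.4 to 97.8 CPM, above parental cells in both cases. These 2 genes lie head to head, so that reads of the shared part may be divided between them. ZNF208, a zinc finger gene, completed the group, with 9.57 CPM in parental cells, 3.24 CPM in LTED-D and 14.9 to 18.5 CPM in the others. By the same criteria 9 protein-coding genes fell in LTED-D and rose in the other 3 variants, and 7 did the reverse.

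CRISP3, a secreted protein, rose in LTED-D to a fraction of its level elsewhere. It was at 0.991, 0.988 and 0.903 CPM in parental cells and at 18.1, 17.1 and 16.2 CPM in LTED-D, and averaged 835, 139 and 828 CPM in LTED-A, LTED-B and LTED-E. The difference of LTED-D from LTED-B, the nearest, was -3.02 on the log2 scale (SE 0.04, adjusted p = 6.81e-20). SLPI, a secreted protease inhibitor, and CXCR1, an interleukin-8 receptor, were below 0.5 CPM in every LTED-D library and averaged 1.65 to 16.4 CPM and 3.47 to 7.73 CPM in the other variants. Both were called higher in LTED-D than in parental cells. These calls were lost with DESeq2 (log2 fold changes 2.93 and 3.15).

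**Figure D1:**
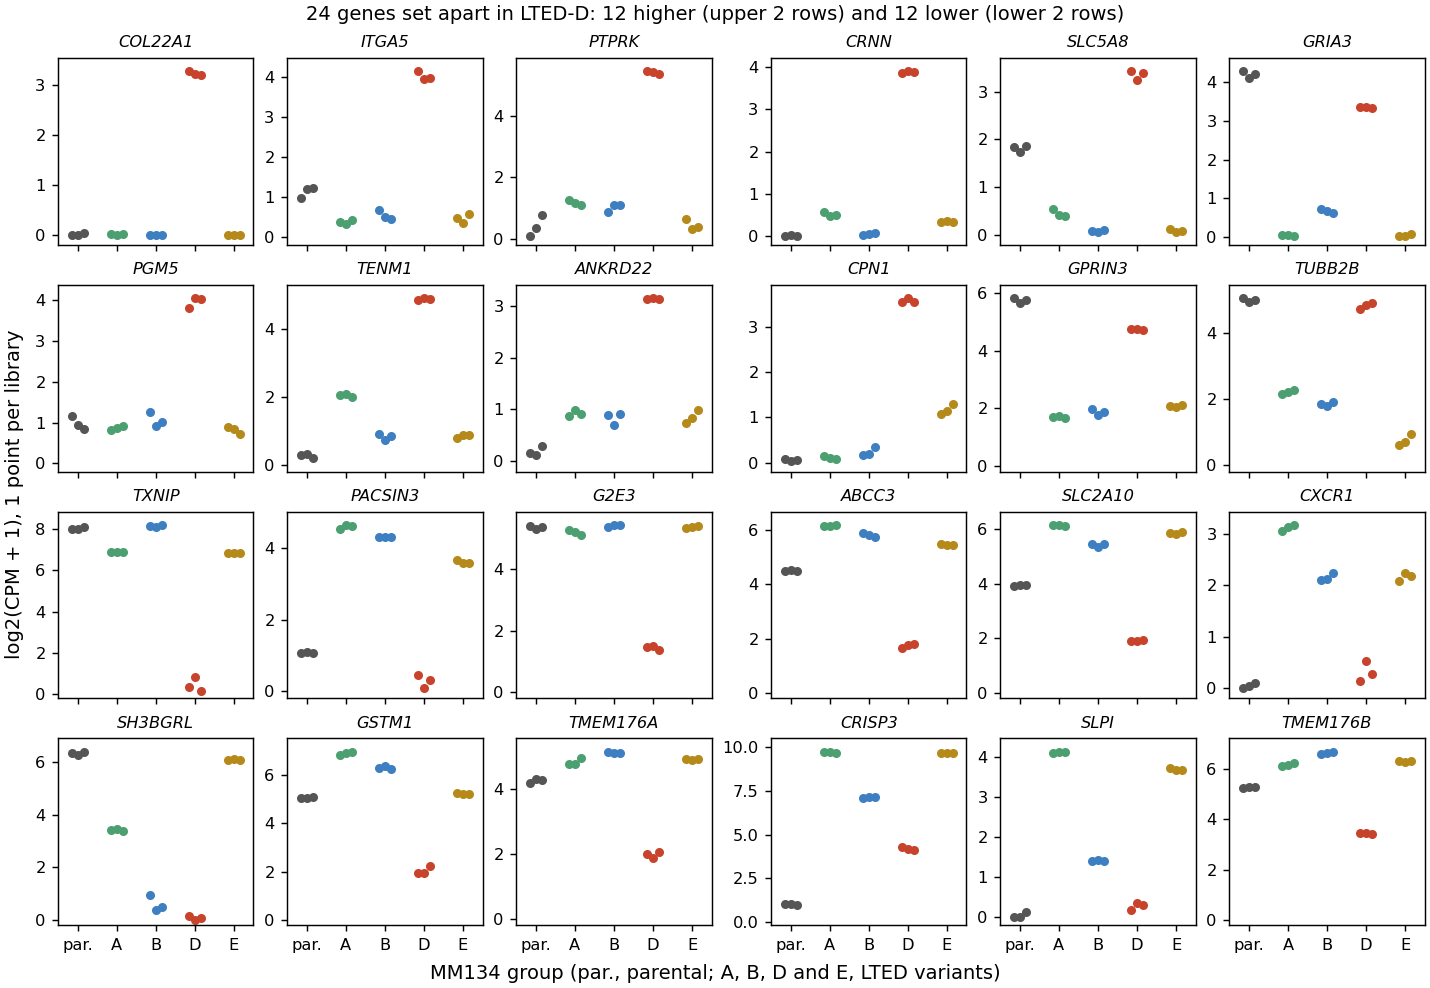
Level of the 24 genes that most set LTED-D apart, as log2(CPM + 1) with 1 point per library, by MM134 group. The upper panels hold the 12 genes that were higher in LTED-D (D), such as ITGA5 and COL22A1, and the lower panels the 12 that were lower, such as TXNIP, where each LTED-D library is below 1 CPM and the other 12 libraries are between 111 and 290 CPM.

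On the high side, genes near silence in the other MM134 groups were expressed in LTED-D. COL22A1, a fibril-associated collagen, had at most 1 count per parental library and was at 8.67, 8.36 and 8.18 CPM in LTED-D, at least 86.8-fold higher. No other MM134 library exceeded 0.0322 CPM. ITGA5, the alpha subunit of the fibronectin receptor, was at 0.963, 1.28 and 1.32 CPM in parental cells and at 16.6, 14.4 and 14.7 CPM in LTED-D (log2 fold change 3.68, SE 0.15, adjusted p = 2.23e-13). The other variants averaged 0.295 to 0.457 CPM, below parental cells. PTPRK, a receptor-type tyrosine phosphatase, was at 0.0566, 0.267 and 0.709 CPM in parental cells and at 42.5, 42.1 and 40.2 CPM in LTED-D (log2 fold change 6.97, SE 0.24, adjusted p = 2.27e-14). The highest PTPRK value among the other 12 libraries was 1.39 CPM.

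CRNN (cornulin, of the squamous epithelial envelope) had at most 1 count per parental library and was at 13.4, 13.8 and 13.8 CPM in LTED-D, at least 141-fold higher, with at most 0.496 CPM elsewhere. TENM1, a teneurin of cell adhesion, went from 0.209 to 28.7 CPM (log2 fold change 7.07), with 0.784 to 3.12 CPM in the other variants. PGM5, a phosphoglucomutase relative found at cell junctions, went from 0.977 to 14.5 CPM (log2 fold change 3.89), with 0.768 to 1.1 CPM in the others. ANKRD22 went from 0.14 to 7.76 CPM and CPN1, a carboxypeptidase subunit, from 0.0385 to 10.9 CPM. The sodium-coupled monocarboxylate transporter SLC5A8 was at 2.61, 2.32 and 2.61 CPM in parental cells and at 9.73, 8.47 and 9.45 CPM in LTED-D, and averaged 0.0635 to 0.372 CPM in the other variants. Like ITGA5, it rose in LTED-D and fell in the others. MYO7A, an unconventional myosin, did the same at a higher level, from 35.7 to 70.9 CPM in LTED-D against 8.72 to 16.7 CPM in LTED-A, LTED-B and LTED-E.

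A further group was set apart because LTED-D stayed nearer to the parental level than the other variants did. CDH2, which encodes N-cadherin, was at 54.8, 50.6 and 51.8 CPM in parental cells and at 51.5, 50.3 and 52.5 CPM in LTED-D, with overlapping values (log2 fold change -0.03, SE 0.04, adjusted p = 0.573). LTED-A, LTED-B and LTED-E averaged 8.48, 6.93 and 1.01 CPM of CDH2, and LTED-D was above them by 2.60, 2.89 and 5.66 on the log2 scale. RET, a receptor tyrosine kinase gene that ER activates, was at 74.1 and 81.1 CPM in parental cells and LTED-D and at 29.3 to 46.5 CPM in the others. TWIST1, a transcription factor of mesenchymal cells, was an exception. It was at 39.9 CPM in parental cells, 54.9 CPM in LTED-D and 20.2 to 35.3 CPM in the others, so LTED-D was not the nearest to parental cells. The AMPA receptor subunit GRIA3 was at 18.5, 16.4 and 17.7 CPM in parental cells, at 9.22, 9.37 and 9.01 CPM in LTED-D and at no more than 0.593 CPM on average elsewhere. TUBB2B, a neuronal beta-tubulin, was at 31.1 CPM in parental cells, 27.6 CPM in LTED-D and 0.695 to 3.63 CPM in the others, and GPRIN3 at 53.3, 25.8 and 2.26 to 3.26 CPM. GRIA3 and GPRIN3 were called lower in LTED-D than in parental cells. CDH2, RET and TWIST1 were members of gene lists, and GRIA3, TUBB2B and GPRIN3 were among the 12 genes set apart by the largest margin.

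Neighbours of the genes that set LTED-D apart were examined to see whether single genes or groups of adjacent genes had shifted. For each of the 24 genes, 12 each way, that differed from the other variants by the largest margin, the nearest 2 genes on each side that averaged 1 CPM or more were taken. Of the 91 distinct neighbours outside these 24, 28 were DE against parental and 5 were themselves set apart. PRKD1, RNVU1-6 and EYA2 were set apart as higher, each beside a gene set apart as lower. PPP1R1A near ITGA5 and ENSG00000279127 near CRISP3 were set apart in the same direction as these genes. Over all genes that averaged 1 CPM or more, 23.2% were DE and 3.93% set apart, as were 2.85% of all genes tested. G2E3 fell between genes that did not pass the threshold on its right side, SCFD1 (0.15 on the log2 scale) and STRN3 (0.07), while PRKD1, further left on chromosome 14, fell by 1.54. TXNIP had POLR3GL (-0.75) and ANKRD34A (-0.70) on one side, lower to a far smaller degree, and RNVU1-6 (1.48) and LINC01719 (0.74) on the other, both higher. SLC2A10 was followed by EYA2, a transcriptional coactivator with phosphatase activity, which fell from 14 to 0.731 CPM (log2 fold change -4.19) and was also set apart, in this case as higher than in the other variants. KCNH2, a potassium channel gene next to TMEM176A, fell from 21.6 to 6.84 CPM (log2 fold change -1.66), and ATG9B beyond it from 4.59 to 2.15 CPM. ZNF775, on the other side of this pair, was not called (0.32).

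PTPRK stood beside ARHGAP18, a GTPase-activating protein gene, which went from 0.0524 to 21.2 CPM (adjusted p = 2.2e-17). The next genes outward, RNF146 (-0.22) and EPB41L2 (-0.57), were not called. CRNN lay in the epidermal gene cluster of chromosome 1 among HRNR (1.48), FLG (2.16), S100A8 (3.46), and beside S100A9 (0.0367 to 4.04 CPM), all of them higher in LTED-D. TENM1, CPN1, PGM5 and PACSIN3 had no called gene among their neighbours. CPED1, which had the largest rise among genes with over 100 CPM in LTED-D apart from PLS3, was at 0.085, 0.214 and 0.355 CPM in parental cells and at 433, 442 and 417 CPM in LTED-D. The other variants averaged 67.4, 46.3 and 2.84 CPM of CPED1, so LTED-D was set apart on the high side. Next to it on chromosome 7, FAM3C, a secreted factor, rose from 62.4 to 118 CPM and PTPRZ1, a receptor phosphatase, from 0.282 to 5.9 CPM, and both were set apart. On the other side, TSPAN12 rose from 4.06 to 11.6 CPM and ING3 did not pass the fold threshold (0.34). GASK1B, at 14, 14.6 and 14.7 CPM in LTED-D and at least 149-fold higher than in parental cells, had PDGFC, a growth factor gene, beside it (0.0107 to 4.45 CPM).

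Longer runs of shifted neighbours were sought by sliding a window of 40 genes, in steps of 20, over all genes averaging 5 CPM or more. Of 562 windows, 13 had a median log2 fold change above 0.5 and 0 were below -0.5, the lowest window median being -0.25. These windows formed 4 stretches, on chromosomes 7, 8, 16 and 17, that held 400 genes. The longest reached from TBL3 to SHCBP1 on chromosome 16 (hg38, 1972053 to 46621379) and held 280 of the 566 genes of that chromosome. Its median log2 fold change was 0.55, or 1.47-fold, and 253 of its genes were above 0. DE genes numbered 131 higher (46.8%) and 5 lower (1.79%), against 13% and 9.14% of the 11862 genes at this level. Genes set apart made up 2.68% (higher) and 0.725% (lower) of that background. Across these genes the 3 LTED-D libraries were shifted from the parental mean by medians of 0.528, 0.514 and 0.546 on the log2(CPM + 1) scale. The 9 libraries of the other variants were shifted by 0.047 to 0.126, so no library of another variant approached LTED-D. The stretches were picked by their LTED-D medians in these same libraries. Their shares and shifts, here and below, describe them and are no further test.

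The chromosome 16 shift was shared by genes of many functions. RPS15A, a ribosomal protein gene, was at 439, 457 and 472 CPM in parental cells and at 764, 788 and 775 CPM in LTED-D. EIF3C, a translation initiation factor subunit with a near-identical copy, went from 616 to 1266 CPM, and ALDOA, the glycolytic aldolase, from 292 to 641 CPM. EMP2, an epithelial membrane protein gene, went from 364 to 636 CPM. These 4 had the highest levels in LTED-D among called genes of the stretch. The other variants averaged 476 to 591 CPM of RPS15A and 648 to 774 CPM of EIF3C, but reached 522 to 670 CPM of ALDOA and 535 to 673 CPM of EMP2, near LTED-D. Against the mean of LTED-A, LTED-B and LTED-E, 262 of the 280 genes were higher in LTED-D, with a median difference of 0.50, and 51 were set apart as higher against 1 as lower. The 60 genes of chromosome 16 before TBL3 had a median of 0.47, and all 60 were above the mean of the other variants. The 226 genes beyond SHCBP1 had a median of 0.05, with 18 higher and 15 lower, and 49.1% of them were above the mean of the other variants. The shift thus ended near SHCBP1.

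**Figure D2:**
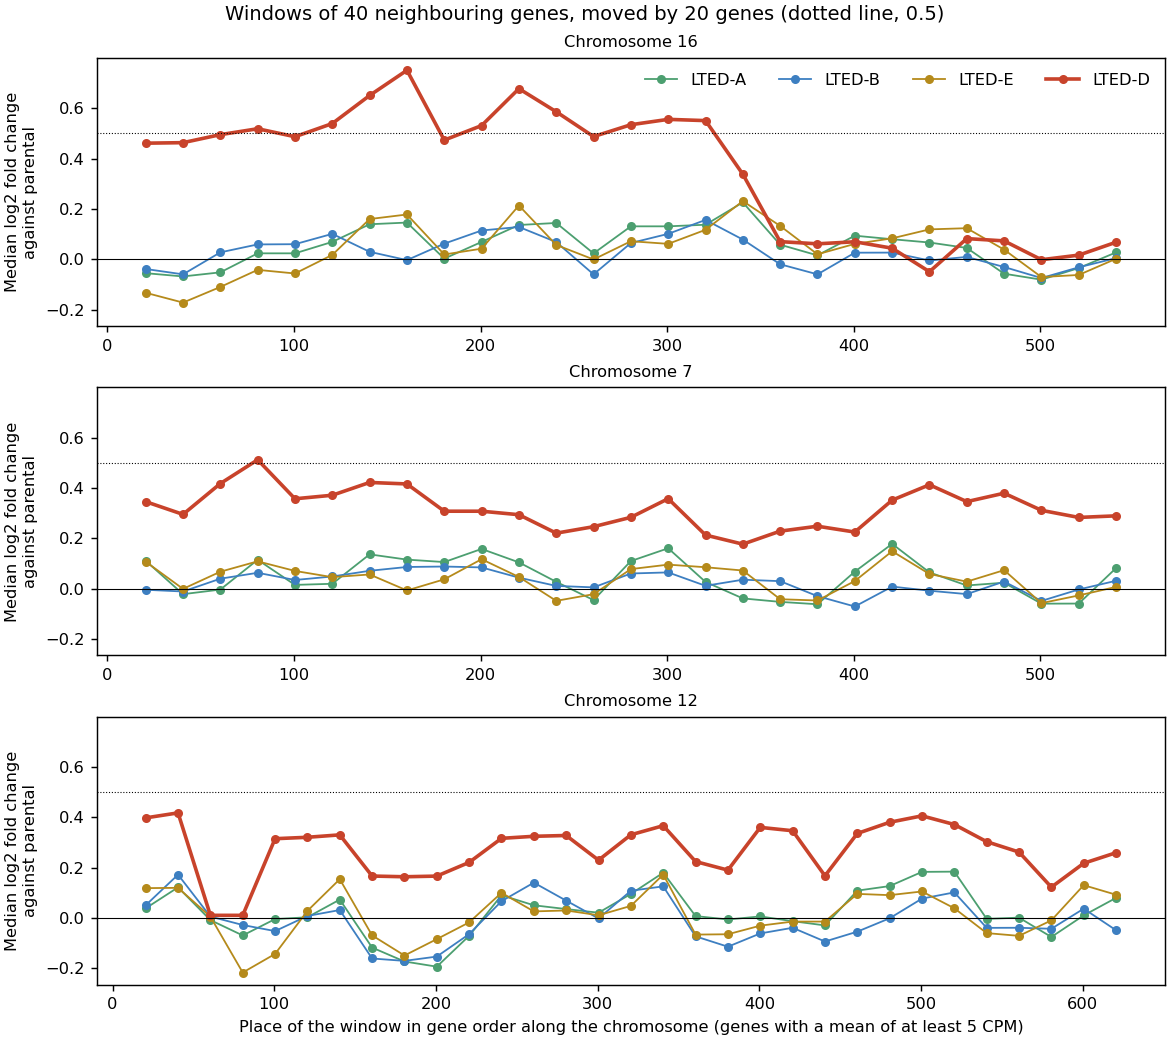
Median log2 fold change against parental in windows of 40 neighbouring genes along chromosomes 16, 7 and 12, by place in gene order, with 1 line per LTED variant and a dotted line at 0.5. On chromosome 16 the LTED-D line lies above the other 3 lines in the part that ends near SHCBP1 and joins them beyond it, while on chromosomes 7 and 12 it lies above them along the whole length.

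Chromosomes 7 and 12 were shifted in LTED-D from end to end, by less than chromosome 16. The median log2 fold change was 0.32 over 566 genes of chromosome 7, 0.27 over 643 genes of chromosome 12 and 0.34 over the 566 of chromosome 16. On the other 20 chromosomes it ranged from -0.06 to 0.12. Per library, the LTED-D shifts were 0.304, 0.288 and 0.319 for chromosome 7, 0.250, 0.268 and 0.254 for chromosome 12 and 0.320, 0.311 and 0.356 for chromosome 16. The medians of LTED-A, LTED-B and LTED-E for these 3 chromosomes were between -0.01 and 0.06. Relative to the mean of those variants, LTED-D was higher by a median of 0.29 on chromosome 7 (490 of 566 genes above, 86.6%), 0.27 on chromosome 12 (557 of 643, 86.6%) and 0.31 on chromosome 16 (433 of 566, 76.5%). On the other chromosomes the median difference ranged from -0.02 to 0.03. All 27 windows of chromosome 7 had medians above 0.1 (0.18 to 0.51), as did 29 of the 31 windows of chromosome 12 (range of all 31, 0.01 to 0.42). With scaling by library size alone, the chromosome medians were 0.12, 0.07 and 0.15 with the median of all genes at -0.23. A change of scaling moves all genes together, so it could hardly alter the distance of these medians from that of all genes. It is no test of that distance.

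**Figure D3:**
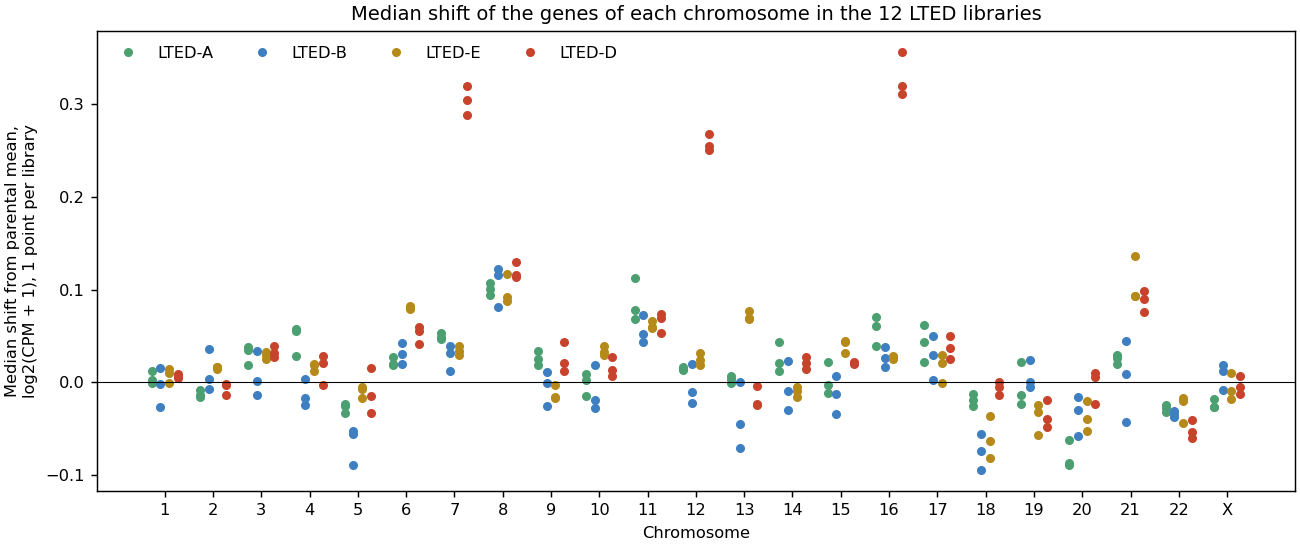
Median shift of the genes of each chromosome from the parental mean, in log2(CPM + 1), with 1 point for each of the 12 LTED libraries. The LTED-D points lie between 0.250 and 0.356 for chromosomes 7, 12 and 16, above the points of the other variants there.

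Genes of these chromosomes were a large part of what set LTED-D apart on the high side. Of the 528 genes, 41 were on chromosome 7, 42 on chromosome 12 and 80 on chromosome 16, together 163 or 30.9%, while 15% of all genes tested were on these chromosomes. The chromosomes were singled out by their medians in the same LTED-D libraries, so this higher share is no independent result. Of the 214 genes set apart as lower, 30 (14%) were there. ITGA5, SLC5A8, OAS2 and OAS3 are on chromosome 12 and CPED1 on chromosome 7, but their changes were many times the median shift of the chromosome. COPZ1, 1 of 2 genes to the left of ITGA5, rose by 0.62 on the log2 scale, and the nearest genes on either side of it, ZNF385A (0.70) and NCKAP1L (-0.33), were not called.

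The remaining stretches were short. On chromosome 7, 40 genes from UMAD1 to SCRN1 had a median of 0.51, with 18 higher and 2 lower. They include AGR2, a secretory-pathway protein that ER induces, at 2.44, 3.39 and 3.68 CPM in parental cells and 447, 460 and 431 CPM in LTED-D. TSPAN13 (176 to 534 CPM), BZW2 (77.0 to 211 CPM) and TOMM7 (98.0 to 154 CPM) rose there as well. On chromosome 8, 40 genes from PCMTD1 to STAU2 had a median of 0.57 in LTED-D and of 0.37 to 0.39 in the other variants. Its members ASPH, a calcium-binding hydroxylase gene, and NCOA2, a coactivator of nuclear receptors, rose from 347 to 876 CPM and from 136 to 252 CPM. On chromosome 17, 40 genes from EZH1 to ASB16-AS1 had a median of 0.51 but only 8 genes higher and 3 lower. LTED-B replicate 3 was shifted by 0.223 there, while the other 2 LTED-B libraries were at -0.165 and -0.148. The chromosome 7 stretch was lost without LTED-D replicate 2 or parental replicate 2, and the chromosome 17 stretch without LTED-D replicate 2, parental replicate 1 or parental replicate 3, whereas that of chromosome 16 remained in each case.

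Members of 16 gene lists were examined for the pathways that bear on estrogen-deprived lobular cells. Of 296 genes, 289 were tested, and 101 were higher (34.9%) and 39 lower (13.5%) in LTED-D, against 9.63% and 7.95% of all genes tested and 13% and 9.14% of those with at least 5 CPM. The other 7 had at most 49 counts in any of the 6 libraries. The lists were chosen with earlier results of these data known, so a higher share than among all genes is no independent result. No member of the cholesterol, fatty acid synthesis, fatty acid oxidation, MHC class II or proliferation lists was set apart in LTED-D. The same held for cell cycle inhibitors and glycolysis.

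**Figure D4:**
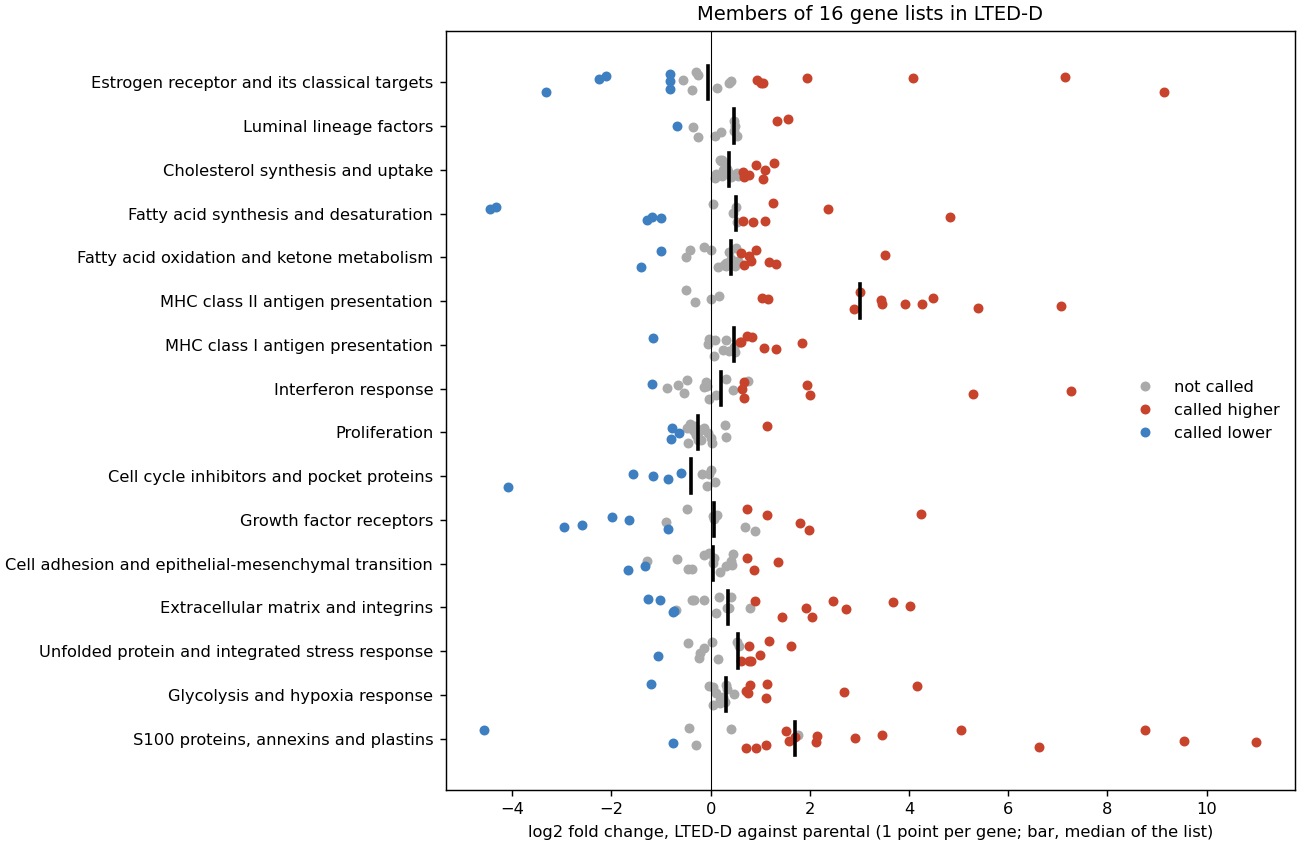
Log2 fold change of LTED-D against parental for the members of 16 gene lists, with 1 point per gene, red where called higher, blue where called lower and grey where not called, and a bar at the median. MHC class II genes have the highest median, 3.01, and cell cycle inhibitors the lowest, -0.39. Medians in LTED-A, LTED-B and LTED-E, not drawn, are 3.88, 1.22 and 2.68 for MHC class II and -0.58, -0.37 and -0.11 for cell cycle inhibitors.

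ER and its classical targets moved both ways. Of 20 tested, 7 were higher, 6 lower and 7 not called, with a median of -0.06. ESR1 itself was at 369, 347 and 363 CPM in parental cells and at 466, 474 and 459 CPM in LTED-D, without overlap but under the fold threshold (log2 fold change 0.38, SE 0.03). The secreted trefoil genes rose furthest. TFF1 was at 4.28, 4.27 and 4.29 CPM in parental cells and at 2439, 2348 and 2506 CPM in LTED-D (log2 fold change 9.15, SE 0.06, adjusted p = 3.63e-24), and averaged 565 to 1021 CPM in the other variants. TFF1 was therefore set apart, while its neighbour TFF3 rose from 107 to 1798 CPM without being set apart. CTSD, a lysosomal protease, rose from 193 to 740 CPM and CA12, a carbonic anhydrase, from 372 to 778 CPM. PGR, the progesterone receptor gene, fell from 2.65 to 0.257 CPM, the growth factor gene AREG from 18.9 to 4.38 CPM and STC2, a secreted glycoprotein, from 37.0 to 7.73 CPM. GREB1, an ER cofactor, was at 69.8 and 58.8 CPM and CCND1, cyclin D1, at 5223 and 4243 CPM, neither past the fold threshold.

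Among 11 luminal lineage factors, of which 2 were higher and 1 lower, ELF3 (15.3 to 38.5 CPM) and EHF (log2 fold change 1.57), epithelial ETS factors, rose. FOXA1 (402 and 556 CPM), GATA3 (163 and 190 CPM) and GRHL2 (160 and 170 CPM) did not pass the fold threshold. MUC1, an apical mucin of luminal cells, was at 0.538, 0.401 and 0.484 CPM in parental cells and at 5.24, 5.6 and 5.93 CPM in LTED-D, and no library of another variant exceeded 1.09 CPM. Keratin 8 (KRT8) rose from 585 to 1258 CPM.

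Cholesterol synthesis and uptake genes rose in part, with 7 of 23 tested higher and 0 lower and a median of 0.37. Under library size scaling 4 were higher. The medians of this list in LTED-A, LTED-B and LTED-E were 0.37, 0.30 and 0.79. The regulator SREBF2 (79.4 and 92.2 CPM) was not called. CYP51A1 (176 to 378 CPM), HMGCS1 (91.8 to 190 CPM), SQLE (158 to 298 CPM) and DHCR7 (17.1 to 41.5 CPM), enzymes along the pathway, rose.

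Fatty acid synthesis genes moved both ways. FASN, the fatty acid synthase gene, was at 369, 370 and 350 CPM in parental cells and at 1882, 1773 and 1922 CPM in LTED-D (log2 fold change 2.36, SE 0.05). ACACA, which makes malonyl-CoA, rose from 92.7 to 166 CPM, the desaturase gene SCD from 468 to 1125 CPM and the elongase gene ELOVL6 from 29.8 to 63.3 CPM. The desaturases of polyunsaturated fatty acids fell. FADS1 went from 112 to 5.16 CPM (log2 fold change -4.44, SE 0.07) and FADS2 from 258 to 12.9 CPM (log2 fold change -4.33, SE 0.05). ELOVL5, which elongates polyunsaturated chains, fell from 228 to 113 CPM and SCD5 from 87.9 to 38.9 CPM. SREBF1, the lipogenic regulator, was at 107 and 153 CPM, a log2 fold change of 0.51 that did not pass the fold threshold. Of the 15 genes, 6 were higher and 5 lower. Their median was 0.51 in LTED-D and 0.49, 0.30 and 0.40 in LTED-A, LTED-B and LTED-E.

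In fatty acid oxidation and ketone metabolism, 8 of 23 genes were higher and 2 lower, or 5 and 4 under library size scaling. Their median was 0.42 in LTED-D and 0.50, 0.38 and 0.35 in LTED-A, LTED-B and LTED-E. BDH1, which acts on ketone bodies, rose from 25.9 to 58.6 CPM. CPT1A, the carnitine transferase that admits fatty acids to mitochondria, was at 456 and 342 CPM and not called, while CPT2 rose from 22.5 to 38.3 CPM. PPARA, a regulator of this pathway, fell from 34.5 to 13 CPM.

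Genes of the 2 arms of antigen presentation differed in extent. MHC class II genes, which display peptides to helper T cells, had 11 of 15 tested members higher, 0 lower and a median of 3.01. The rise was shared, with medians of 3.88, 1.22 and 2.68 in LTED-A, LTED-B and LTED-E. HLA-DPA1 went from 0.103 to 13.3 CPM, HLA-DMB, which loads peptides, from 0.318 to 13.4 CPM, and CD74, the invariant chain, from 21.6 to 174 CPM. In MHC class I, 7 of 17 were higher and 1 lower, with a median of 0.47. HLA-B (48.5 and 47.4 CPM) and HLA-C (52.3 and 55.2 CPM) were not called, and the activator NLRC5 fell from 2.46 to 1.09 CPM. Peptide transport and cleavage genes rose, among them TAP1 (4.23 to 10.5 CPM) and PSMB8 (1.56 to 5.56 CPM), an immunoproteasome subunit that was set apart in LTED-D (at most 3.02 CPM in any library of another group). HLA genes are variable and alike, and their counts depend on how reads were divided.

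In the interferon response, LTED-D was set apart by OAS2 and OAS3, oligoadenylate synthetases that sense double-stranded RNA. Of 20 genes tested, 7 were higher and 1 lower, with a median of 0.22, or 4 and 3 under library size scaling. With parental replicate 1 left out, 2 genes were lower. OAS3 was at 0.227, 0.347 and 0.29 CPM in parental cells and at 44.8, 41.9 and 48.1 CPM in LTED-D (log2 fold change 7.27, SE 0.12, adjusted p = 5.63e-19). In LTED-A, LTED-B and LTED-E it averaged 3.41, 6.53 and 5.05 CPM, and LTED-D was higher by 3.72, 2.78 and 3.16 on the log2 scale. OAS2, its neighbour on chromosome 12, was at 0.113, 0.16 and 0.129 CPM in parental cells and at 5.34, 5.68 and 5.03 CPM in LTED-D, and was also set apart. OAS1, on the other side of OAS3, rose from 0.504 to 2.03 CPM but averaged 4.95 CPM in LTED-A. The related gene OASL, chosen after its values were seen, was at 1.57 and 2.23 CPM on average and not called. IFI44L, an interferon-induced gene, was at 0.623, 0.534 and 0.58 CPM in parental cells and at 0.356, 0.366 and 0.232 CPM in LTED-D, not called against parental (adjusted p = 0.00844 in edgeR) but set apart on the low side.

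Most other interferon-stimulated genes were not called. ISG15, a ubiquitin-like modifier, was at 0.793, 0.828 and 0.742 CPM in parental cells and at 0.744, 0.872 and 0.718 CPM in LTED-D, with overlapping values (adjusted p = 0.941). MX1, an antiviral GTPase, was at 4.3 and 4.65 CPM, IFIT1 at 1.62 and 1.01 CPM, IFI27 at 0.847 and 0.59 CPM and IRF7 at 20.9 and 19.5 CPM, none of them called. IRF9, part of the factor that carries the interferon signal, fell from 12.9 to 5.71 CPM. IFIT2 rose from 1.35 to 5.15 CPM and IFIH1, an RNA sensor, from 20.1 to 32.1 CPM. The promoter windows of OAS3 and ISG15 are shown together because their expression differed while both hold 2 matches to GAAANNGAAA, the core of the interferon-stimulated response element, searched on both strands and written in capitals. They are the 250 bases before the start (RefSeq GRCh38.p14, plus strand), chr12:112938224-112938473 for OAS3 and chr1:1013247-1013496 for ISG15, where the 2 matches overlap.
OAS3 promoter: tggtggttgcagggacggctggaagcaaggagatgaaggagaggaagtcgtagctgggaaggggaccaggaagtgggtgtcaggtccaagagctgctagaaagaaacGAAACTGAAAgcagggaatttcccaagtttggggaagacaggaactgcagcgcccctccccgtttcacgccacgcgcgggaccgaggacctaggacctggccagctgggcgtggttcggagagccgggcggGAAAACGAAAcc
ISG15 promoter: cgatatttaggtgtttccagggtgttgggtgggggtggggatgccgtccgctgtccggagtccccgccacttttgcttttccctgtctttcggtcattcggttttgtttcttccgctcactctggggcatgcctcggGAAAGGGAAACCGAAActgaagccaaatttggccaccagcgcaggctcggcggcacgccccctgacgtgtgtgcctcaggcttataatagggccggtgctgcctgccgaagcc
The matches begin 143 and 12 bases before the OAS3 start and 113 and 107 bases before that of ISG15. IFIT1 and IFI44L also held 2 matches each, and 1061 of 35116 promoter windows (3.02%) held at least 1.

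**Figure D5:**
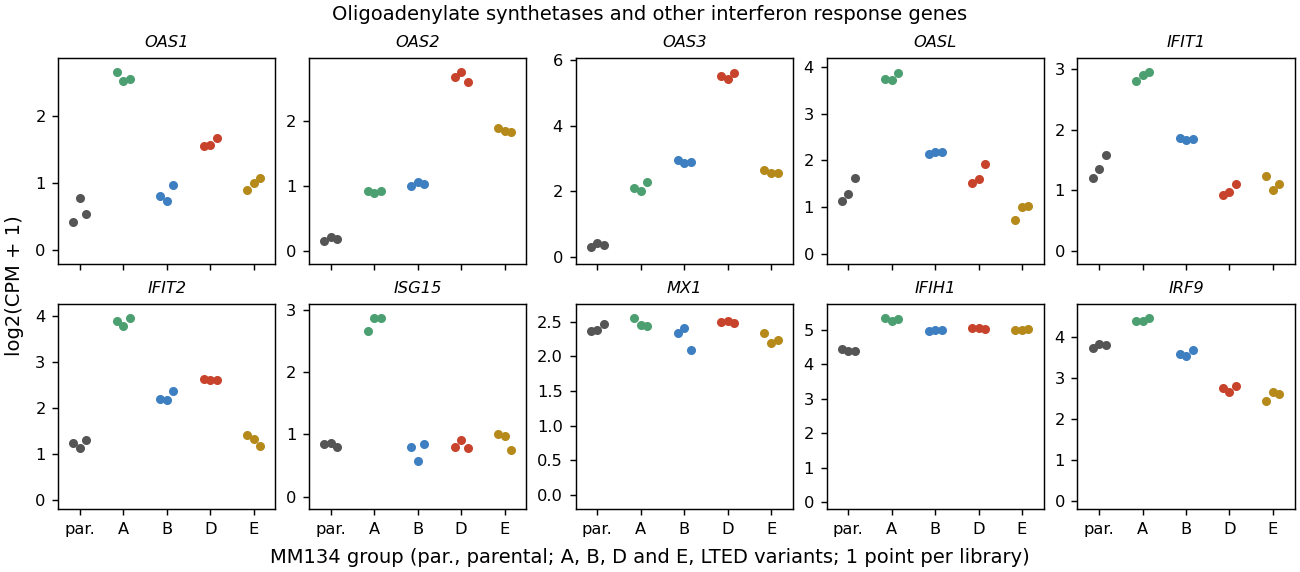
Levels of 4 oligoadenylate synthetase genes and 6 other interferon response genes as log2(CPM + 1), with 1 point per library, by MM134 group. OAS3 and OAS2 are highest in the 3 LTED-D (D) libraries, while ISG15 lies at 0.718 to 0.872 CPM in LTED-D, within the range of the other groups outside LTED-A.

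Proliferation genes had a median of -0.25, with 1 of 22 higher and 3 lower. The medians in LTED-A, LTED-B and LTED-E were -0.44, -0.27 and 0.04. MKI67, the proliferation marker Ki-67, was at 263 and 210 CPM and not called. TOP2A (1441 to 826 CPM), CDK1 (259 to 151 CPM) and RRM2 (173 to 111 CPM) fell, while CCNE1, cyclin E1, rose from 4.46 to 9.75 CPM. Of 10 cell cycle inhibitors and pocket proteins, 5 fell and 0 rose. CDKN1A, which encodes p21, went from 49.8 to 2.92 CPM (log2 fold change -4.09, SE 0.08, adjusted p = 1.05e-17). CDKN2B (17.6 to 5.97 CPM), CDKN2D (16.8 to 7.45 CPM), CDKN2A (16.6 to 9.05 CPM) and CDKN1C (10.4 to 6.9 CPM) fell by less, and RB1 was level at 48.7 and 47.7 CPM.

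Growth factor receptors moved both ways. ERBB4 rose from 5.07 to 95.1 CPM (log2 fold change 4.23, SE 0.04) while ERBB2, of the same family, fell from 72.8 to 12.1 CPM (log2 fold change -2.59, SE 0.05). Of the FGF receptors, FGFR3 (3.69 to 14.5 CPM) and FGFR4 (159 to 348 CPM) rose, FGFR2 (5.0 to 1.6 CPM) fell, and FGFR1, the most abundant at 2257 and 1629 CPM, did not pass the fold threshold. IGF1R fell from 130 to 71.5 CPM and INSR, the insulin receptor gene, rose from 90.5 to 150 CPM. In all, 5 of 17 were higher and 5 lower.

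Among adhesion genes, 3 of 18 were higher and 2 lower. CDH1, the E-cadherin gene, was at 12.9 and 9.84 CPM and not called, against 252 and 334 CPM for the epithelial adhesion gene EPCAM. CDH3, P-cadherin, rose from 7.42 to 18.9 CPM, and FN1, fibronectin, fell from 147 to 58.2 CPM. In the matrix and integrin list, 8 of 22 were higher and 4 lower, and 5 members were set apart as higher in LTED-D. LAMB1, a laminin chain, was at 29.6, 30.6 and 31.7 CPM in parental cells and at 201, 203 and 204 CPM in LTED-D, and reached at most 120 CPM in a library of another variant. COL5A1 (5.46 to 14.8 CPM), a fibrillar collagen, LAMA3 (19.9 to 36.8 CPM), another laminin chain, and ITGA5 rose and were set apart. COL18A1, a basement membrane collagen, kept its level (40.2 and 45.2 CPM) where the others averaged 13.8 to 24.6 CPM. The epithelial integrins ITGB4 (2.48 to 13.8 CPM) and ITGB6 (0.36 to 5.83 CPM) rose, while ITGA6, the partner of ITGB4 in hemidesmosomes, fell from 84.6 to 35.4 CPM.

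Of 16 genes of the unfolded protein and integrated stress responses, 7 were higher and 1 lower. The chaperone genes HSPA5 (125 to 214 CPM) and HSP90B1 (448 to 786 CPM) rose, and EDEM1, of endoplasmic reticulum degradation, from 45.4 to 102 CPM. TRIB3, a pseudokinase of the stress response, rose from 15.9 to 48.5 CPM but averaged 76.3 to 251 CPM in the other variants, so that LTED-D was set apart on the low side. ATF4, the regulator upstream, was at 203 and 186 CPM and not called. In glycolysis, 7 of 20 were higher and 1 lower. SLC2A1, the glucose transporter GLUT1, rose from 363 to 782 CPM, PFKP, a phosphofructokinase, from 1.33 to 8.67 CPM, and GAPDH from 1638 to 2767 CPM. ENO2 fell from 82.6 to 36.1 CPM.

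S100 proteins, annexins and plastins, calcium-dependent and cytoskeletal proteins, had 15 of 21 members higher and 2 lower, with a median of 1.69. S100A16 was at 0.368, 0.401 and 0.258 CPM in parental cells and at 146, 153 and 153 CPM in LTED-D (log2 fold change 8.75, SE 0.06, adjusted p = 7.96e-24). S100P (0.23 to 7.69 CPM) and ANXA4 (log2 fold change 1.57) rose as well. ANXA2, an annexin that binds S100A10, fell from 75.2 to 3.18 CPM (log2 fold change -4.56) while S100A10 rose from 3.74 to 12.1 CPM. ANXA3 was the only member set apart, at 2.65 CPM in LTED-D against 0.607 CPM in parental cells and 0.478 to 0.981 CPM in the other variants. The p-values describe the spread between wells of these cultures and not between independent derivations.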

How the data were processed

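RNA-Seq libraries of MM134 parental cells and 4 LTED variants were analysed (15 libraries, 3 wells per group, grouped by sample title). Libraries were made with a stranded total RNA kit, and per the labels and methods the authors quantified genes with Salmon 0.6.0 against hg38 (Ensembl release 82). The strand setting and trimming are not given in the sources used here. The deposited values are estimated counts per gene, neither scaled nor whole, and were rounded. How reads of overlapping or near-identical genes were divided depends on that estimate. Symbols and positions come from GENCODE v44 (hg38) by Ensembl ID (56434 of 60619 genes matched), and promoters from RefSeq GRCh38.p14, which carries the same hg38 coordinates.

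Low-count genes were removed by filterByExpr, TMM factors were applied, and 1 model was fitted to the 15 libraries with edgeR 4.0.16 (quasi-likelihood, two-sided, Benjamini-Hochberg) in R 4.3.3. DE genes had an adjusted p under 0.001 and a fold over 1.5, as in the study. A group was below detection where none of its libraries exceeded 3 counts. Same-numbered wells were not paired (correlations of deviations -0.0325, -0.11 and -0.151). Replicates differed by more than counting error (chi-square per degree of freedom 2.52 to 9.59 within the parental and LTED-D pairs). Named genes were the 12 largest changes each way at 5 CPM or more with 3 lncRNA genes each way, the 12 genes each way that differed most from the other variants, up to 6 each way that moved opposite to them, called list members and fixed regulators, and the 4 highest called genes of each stretch. Members, lists and rules were chosen with earlier results of these data known, and genes outside the rule are said to have been chosen after their values were seen. Alternatives were other filters, scalings, thresholds, DESeq2 1.42.0, a replicate block, thinning, other windows and each library left out. The procedure was tested on simulated data. SUM44 libraries were not used here. A few individual genes are left unreported.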

Additional observations from a re-analysis of the deposited data

Results flagged for a closer look

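Among genes set apart that averaged 5 CPM or more in at least 1 of the 5 groups, 9 protein-coding genes fell against parental in LTED-D and rose in LTED-A, LTED-B and LTED-E, and 7 did the reverse. The 6 each way with the largest LTED-D change are given, with the edgeR difference of LTED-D from the mean of the other 3 variants, in log2 units. The genes were chosen by contrasts on the same libraries, so the difference describes its size and is no further test. On the low side the differences were -6.32 for PACSIN3, -4.54 for ABCC3, -4.30 for SLC2A10, -3.36 for TMEM176A, -3.04 for TMEM176B and -2.32 for ZNF208. On the high side they were 6.26 for SLC5A8, 5.33 for ITGA5, 3.90 for SMIM32, 2.66 for DCDC1, 2.59 for MYO7A and 1.84 for TMEM139. SMIM32 was at 2.24, 1.95 and 2.1 CPM in parental cells and at 5.56, 6.28 and 5.93 CPM in LTED-D, DCDC1 at 7.55 and 26.3 CPM on average, and TMEM139 at 3.26 and 5.79 CPM.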

How the results depend on the processing

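Against the 2510 genes higher and 2071 lower in LTED-D, no fold minimum gave 5175 and 4038, a fold over 2 gave 1456 and 1327, and library size scaling gave 1770 and 3308, with 34.9% of calls upward against 54.8%. DESeq2 gave 2481 and 1853, and leaving out 1 library gave 2341 to 2457 and 1877 to 1957. Genes set apart (528 higher, 214 lower) became 1731 and 775 with no fold minimum, 265 and 111 with a fold over 2, 390 lower at an adjusted p under 0.05, and 478 to 557 and 185 to 214 without 1 library. The 101 and 39 list members became 153 and 74 with no fold minimum, 68 and 26 with a fold over 2, 79 and 52 under library size scaling, and 95 to 100 and 37 to 40 without 1 library. The 400 genes in stretches became 180 at 20 CPM or more, 660 and 100 with thresholds of 0.4 and 0.6, 260 against the mean of the other variants, and 320 to 420 without 1 library, where chromosome 16 remained in each. Chromosome medians, computed under settings chosen after seeing the data, stayed within 0.28 to 0.37 (7), 0.23 to 0.31 (12) and 0.27 to 0.40 (16), apart from library size scaling (0.12, 0.07 and 0.15). With no fold minimum and with a fold over 2, 20 and 3 cholesterol genes were higher (7 as reported), 16 and 3 of fatty acid oxidation (8), and 3 interferon genes were lower with none (1), while 4 were higher with a fold over 2 (7). Without genes of these chromosomes, 1861 genes were higher and 1900 lower. With a replicate block, which rests on numbers that do not pair the wells, 2468 genes were higher and 2007 lower, and 512 and 208 were set apart. Of 229 called genes named by the rules, 37 lost the call in at least 1 setting, CDKN1C, SLPI, CXCR1, CHAC1, HLA-DOA, ITGA2 and PDIA3 among them, and 0 reversed.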

Other observations

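Further groups of genes were examined after the values were seen, and are given as values. Among heat shock genes, HSPA1A was at 870, 863 and 891 CPM in parental cells and at 1558, 1543 and 1587 CPM in LTED-D (log2 fold change 0.84, SE 0.03), with 831 to 916 CPM on average in the other variants, and it was set apart. Its near-identical copy HSPA1B rose from 402 to 674 CPM. HSP90AA1, the inducible HSP90 gene, was at 1928 and 2065 CPM and not called against parental, but LTED-A, LTED-B and LTED-E averaged 1079, 1232 and 1375 CPM, so that LTED-D was set apart as higher. HSPH1 (133 and 131 CPM), DNAJB1 (173 and 198 CPM), HSPD1 (437 and 601 CPM) and HSPB1 (138 and 205 CPM) did not pass the fold threshold.

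NQO1, a quinone reductase of the antioxidant response, was at 151, 145 and 151 CPM in parental cells and at 369, 374 and 357 CPM in LTED-D, and averaged 1300, 786 and 1404 CPM in the other variants, so that LTED-D rose and was still set apart on the low side. SLC7A11, the cystine transporter, rose from 5.96 to 12.4 CPM, while HMOX1 (2.38 and 2.88 CPM), GCLM (26.3 and 36.0 CPM), GCLC (42.1 and 50.9 CPM) and TXNRD1 (123 and 155 CPM) were not called. FKBP5, a cochaperone that steroid receptors induce, rose from 16.4 to 66.2 CPM against 32.3 to 42.5 CPM in the other variants. PTGES, a prostaglandin E synthase, rose from 3.89 to 44.4 CPM against 7.54 to 14.2 CPM. BCL2, which protects cells from apoptosis, fell from 91.5 to 15.9 CPM, less than in the other variants, which averaged 1.48 to 8.83 CPM. FKBP5, PTGES and BCL2 were each set apart as higher in LTED-D.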
